A study of Mus musculus with 18 samples.

Results

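MHC class II presentation was followed through 8 genes in mouse bone marrow-derived macrophages (BMDMs): the chain genes *H2-Aa*, *H2-Ab1* and *H2-Eb1*, the peptide editor genes *H2-DMa*, *H2-DMb1* and *H2-DMb2*, the invariant chain gene *Cd74* and the transactivator gene *Ciita*. These genes were chosen by symbol, and all 8 were found among the 16314 genes of the count table. Bulk RNA-seq had been performed on BMDMs of *Prep*-/- mice and *Prep*+/- littermates in 3 states, to ask how loss of prolyl endopeptidase (PREP, a serine peptidase) changes the macrophage transcriptome. There were 3 biological replicates in each of the 6 groups, 18 libraries in all.

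The cells of all 6 groups came from femoral bone marrow of mice on a C57BL6/J background and grew for 7 days in 50 ng/ml M-CSF, the growth factor that turns marrow cells into macrophages. M0 cells received no further stimulus. M1 cells received LPS, a bacterial cell wall component, at 50 ng/ml for 24 h, and M2 cells received IL-4 and IL-13, each at 20 ng/ml, for 24 h. The knockout was in the whole body, so the marrow had lacked *Prep* before culture, and the controls were heterozygous rather than wild type.

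MHC class II molecules are pairs of an α and a β chain that carry peptides of ingested proteins to the cell surface and show them to CD4 T cells. The invariant chain, CD74, occupies the groove of new class II molecules and guides them to endosomes, where proteases degrade it and H2-DM, itself an αβ pair, helps the last fragment to leave and peptides to bind. CIITA binds no DNA itself but is recruited by factors seated on the conserved X and Y boxes of these promoters. Resting macrophages carry little class II, interferon-γ and IL-4 are known to raise it, and LPS is known to lower *Ciita* transcription in antigen-presenting cells.

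By the GENCODE M39 annotation of GRCm39, the 6 *H2* members lay within 197.1 kb of chromosome 17. From one end to the other came *H2-DMa* (chr17:34338515-34358958, + strand), *H2-DMb2* (chr17:34362197-34370529, +), *H2-DMb1* (chr17:34372046-34379204, +), *H2-Ab1* (chr17:34476663-34488393, +), *H2-Aa* (chr17:34493404-34506798, −) and *H2-Eb1* (chr17:34504236-34535648, +). *Ciita* lay at chr16:10297923-10347694 (+). The gene models of *H2-Aa* and *H2-Eb1* overlap on opposite strands, although their canonical transcripts do not, and *H2-DMa* overlaps *Brd2* on the opposite strand. *H2-Ab1*, *H2-Eb1*, *H2-DMa* and *H2-DMb1* also overlap Gm-named genes on both strands. *Ciita* overlaps *Dexi* on the opposite strand, *Cd74* overlaps a microRNA gene on its own strand, and *H2-DMb2* overlaps no gene. The effect of these overlaps on the counts was not tested. The library kit keeps the strand, but whether the counting used it is not given in the sources used here. Transcripts of *H2-DMb1* and *H2-DMb2* were 94.3% identical over 1129 bases, so counts of these genes may have been split between them. *H2-DMb2* also matched transcripts of many other genes over shorter lengths. Examples are *Fnip2* at 95.4% over 151 bases and *Prep* at 91.4% over 162 bases. The effect of these matches on its low counts was not tested.

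Five-prime flanks are shown for the chain genes and the DMβ genes because the X and Y boxes that recruit CIITA sit there. RefSeq promoter windows (build GRCm38.p6, 250 bases before to 50 after the start) were held for 5 of the 8 members, namely *H2-Aa*, *H2-Eb1*, *H2-DMa*, *H2-DMb1* and *H2-DMb2*, and for *H2-Ab1*, *Cd74* and *Ciita* none was matched. The stretches run 5′ to 3′ on the gene's strand from base -140 to base -21 before the start. Capitals mark the Y box core GATTGG (or its reverse complement), the X box core AACNGATG and, in *H2-Aa*, the cyclic AMP response element TGACGTCA, letters that were chosen after the sequences had been seen.
H2-Aa, chr17:34287844-34287963, − strand: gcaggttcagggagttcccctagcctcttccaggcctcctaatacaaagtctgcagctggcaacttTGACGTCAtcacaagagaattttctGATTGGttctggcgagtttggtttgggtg
H2-Eb1, chr17:34305727-34305846, + strand: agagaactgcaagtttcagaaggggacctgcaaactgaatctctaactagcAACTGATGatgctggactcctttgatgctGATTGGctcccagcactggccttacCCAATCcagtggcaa
H2-DMb1, chr17:34153051-34153170, + strand: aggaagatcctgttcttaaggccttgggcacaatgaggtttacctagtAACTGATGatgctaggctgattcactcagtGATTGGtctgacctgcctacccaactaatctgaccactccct
H2-DMb2, chr17:34145109-34145228, + strand: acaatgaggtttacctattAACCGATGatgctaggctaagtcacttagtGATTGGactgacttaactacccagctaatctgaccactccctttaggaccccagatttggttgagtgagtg

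The Y box core began at base -49 in *H2-Aa*, -60 in *H2-Eb1*, -62 in *H2-DMb1* and -91 in *H2-DMb2*, and the X box core at -89, -92 and -121 in the last 3 of these. Over both strands, GATTGG was present in 16.11% of the 32851 RefSeq windows, AACNGATG in 2.32% and TGACGTCA in 1.79%. An AACNGATG followed within 40 bases by GATTGG on the gene's strand was present in 7 windows, or 0.0213%, and 3 of the 7 are those of *H2-Eb1*, *H2-DMb1* and *H2-DMb2* printed above. *H2-DMa* had 2 windows, of which one held a GATTGG at base -199 and the other held none of these letters. The matches describe sequence only, and binding was not measured in these libraries.

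Totals lay between 19068237 and 22598279 counts per library, and 12021 genes, all 8 members among them, passed the filter on low counts and were tested. Values are CPM, counts per 1000000 counts of a library size scaled by TMM. A gene was called when its adjusted p (edgeR's quasi-likelihood test, Benjamini-Hochberg over all genes tested) was under 0.05 and its fold change over 1.5. Overlap or separation of the libraries of 2 groups is given as a description, as its share over all genes was not counted. *Prep* itself was lower in *Prep*-/- BMDMs by log2 fold changes of -4.29 in M0, -3.74 in M1 and -3.77 in M2, as its labels state. Replicate 3 of *Prep*-/- M0 and of *Prep*-/- M2 differed more from their partners over all genes than other replicate pairs did. For the class II genes it was replicate 1 of *Prep*-/- M0 that stood apart, and results that rest on it are given with and without it.

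The 7 macrophage markers summed to between 9958 CPM and 47592 CPM per library. Not each of them was high in every state, as *Fcgr1* had means of 23.6 CPM in *Prep*+/- M2 and 18.4 CPM in *Prep*-/- M2. *Lyz2* made up most of the sum in each group by mean, so the sums mainly follow that gene. B cell markers *Cd79a* and *Ms4a1* had at most 4 counts in any library, and the T cell gene *Cd3d* at most 1. Other genes of these lists were not scarce. *Cd79b* and *Cd4* reached 11.5 and 29.6 CPM in *Prep*-/- M0, and *Cd22* reached 13.8 CPM in *Prep*-/- M2, as given beside the comparisons. Of the 8 dendritic cell markers, *Xcr1*, *Clec9a*, *Cd209a*, *Flt3*, *Siglech* and *Ccr7* had at most 4, 8, 8, 11, 16 and 20 counts in any library, *Zbtb46* reached 51 counts, and *Itgax* 585 CPM. *Itgax* and *Zbtb46* were highest in M2, as given beside those comparisons. In bulk RNA, a change in the number of cells that carry class II mRNA and a change in the mRNA per cell cannot be told apart.

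In the M0 state every class II gene was higher in *Prep*-/- than in *Prep*+/- BMDMs. The chain genes, *Cd74* and *Ciita* rose by 16.4-fold to 25.8-fold, *H2-DMa* by 3.72-fold, *H2-DMb1* by 2.25-fold and *H2-DMb2* by 1.76-fold. All 8 were called higher, where 15.4% of all genes tested were called higher and 17.2% lower. The median log2 fold change of the 8 was 4.08 against 0.02 over all genes.

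*H2-Aa*, which encodes the α chain of I-A, had 3.42, 5.01 and 2.65 CPM in *Prep*+/- M0 replicates 1 to 3 and 166, 24.5 and 20.2 CPM in *Prep*-/- M0. The lowest knockout library was 4.02 times the highest control library, and replicate 1 was 7.45 times the mean of the other two. The log2 fold change was 4.25 ± 0.65 (standard error, adjusted p = 6.73e-05), and 2.59 without that replicate. *H2-Ab1*, which encodes the partner β chain of I-A, had 5.47, 5.84 and 3.41 CPM in controls and 233, 34.1 and 33.3 CPM in knockouts. Its groups did not overlap either, with a log2 fold change of 4.35 ± 0.62 (adjusted p = 3.82e-05), or 2.78 without replicate 1. *H2-Eb1*, the β chain gene of I-E, had 2.19, 4.46 and 1.76 CPM in controls and 110.6, 15.6 and 12.6 CPM in knockouts. Here too the knockout libraries all lay above the controls, by 4.03 ± 0.68 on the log2 scale (adjusted p = 0.000168), or 2.32 without replicate 1.

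*Cd74*, on chromosome 18, encodes the invariant chain. It had 31.3, 31.5 and 21.8 CPM in *Prep*+/- M0 and 1107, 184.7 and 193 CPM in *Prep*-/- M0. The lowest knockout library was 5.86 times the highest control library, and replicate 1 was 5.86 times the mean of replicates 2 and 3. The log2 fold change was 4.13 ± 0.53 (adjusted p = 1.61e-05), or 2.74 without replicate 1.

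The peptide editor genes moved less. *H2-DMa*, the α chain gene of H2-DM, had 21.1, 17.5 and 15.7 CPM in *Prep*+/- M0 and 93.9, 49.3 and 58.6 CPM in *Prep*-/- M0. Its log2 fold change was 1.89 ± 0.25 (adjusted p = 1.93e-05), or 1.58 without replicate 1, which was 1.74 times the mean of the others. *H2-DMb1*, a β chain gene of H2-DM, had 40.4, 35.9 and 29.9 CPM in controls and 98.2, 58.1 and 82.9 CPM in knockouts. The groups were separate, and the log2 fold change was 1.17 ± 0.18 (adjusted p = 6.09e-05), or 0.995 without replicate 1. *H2-DMb2*, the other β chain gene, was scarce, with 1.504, 1.34 and 1.16 CPM in controls and 2.75, 1.80 and 2.54 CPM in knockouts. Its call (0.82 ± 0.29, adjusted p = 0.0272) was lost without replicate 1 (0.70, adjusted p = 0.0978), and equally without replicate 3 of the knockouts or without replicate 2 or 3 of the controls.

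*Ciita* had 20, 11 and 7 counts in *Prep*+/- M0 and 480, 328 and 109 counts in *Prep*-/- M0. These are 0.912, 0.434 and 0.281 CPM against 22.8, 13.7 and 5.03 CPM, so the lowest knockout library was 5.52 times the highest control. The log2 fold change was 4.69 ± 0.55 (adjusted p = 7.71e-06), or 4.13 without replicate 1. Unlike the chain genes, *Ciita* was spread over the 3 knockout libraries, replicate 1 at 2.43 times the mean of the others and replicate 3 lowest.

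Values of other cell types and of the culture stood as follows in M0. The summed macrophage markers were 18733 to 22167 CPM in *Prep*+/- and 29989 to 47592 CPM in *Prep*-/-, and 5 of the 7 were called higher, against 15.4% of all genes. Of 4 B cell markers measured, *Cd79b* and *Cd22* were the 2 tested and were higher, their list summing to 5.57 to 7.06 CPM against 13.1 to 19.02 CPM, while *Cd79a* had no count in *Prep*-/- M0 and *Ms4a1* none. The 8 dendritic cell markers summed to 4.42 to 11.4 CPM against 3.68 to 13.3 CPM, most of it *Itgax*, which overlapped. *Siglech* had 0 counts in each *Prep*+/- M0 library and 4, 16 and 9 in *Prep*-/- M0, and *Flt3* had 0, 1 and 0 against 11, 2 and 3, so both were higher in every knockout library, at counts too low for the filter. *Cd4*, listed as a T cell marker, had 18, 19 and 24 counts against 625, 315 and 170 counts, while *Cd3d* had none in *Prep*-/- M0, and the single NK cell marker measured, *Klrb1c*, had at most 5. The part of these genes in the class II difference was not tested.

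**Figure D1:**
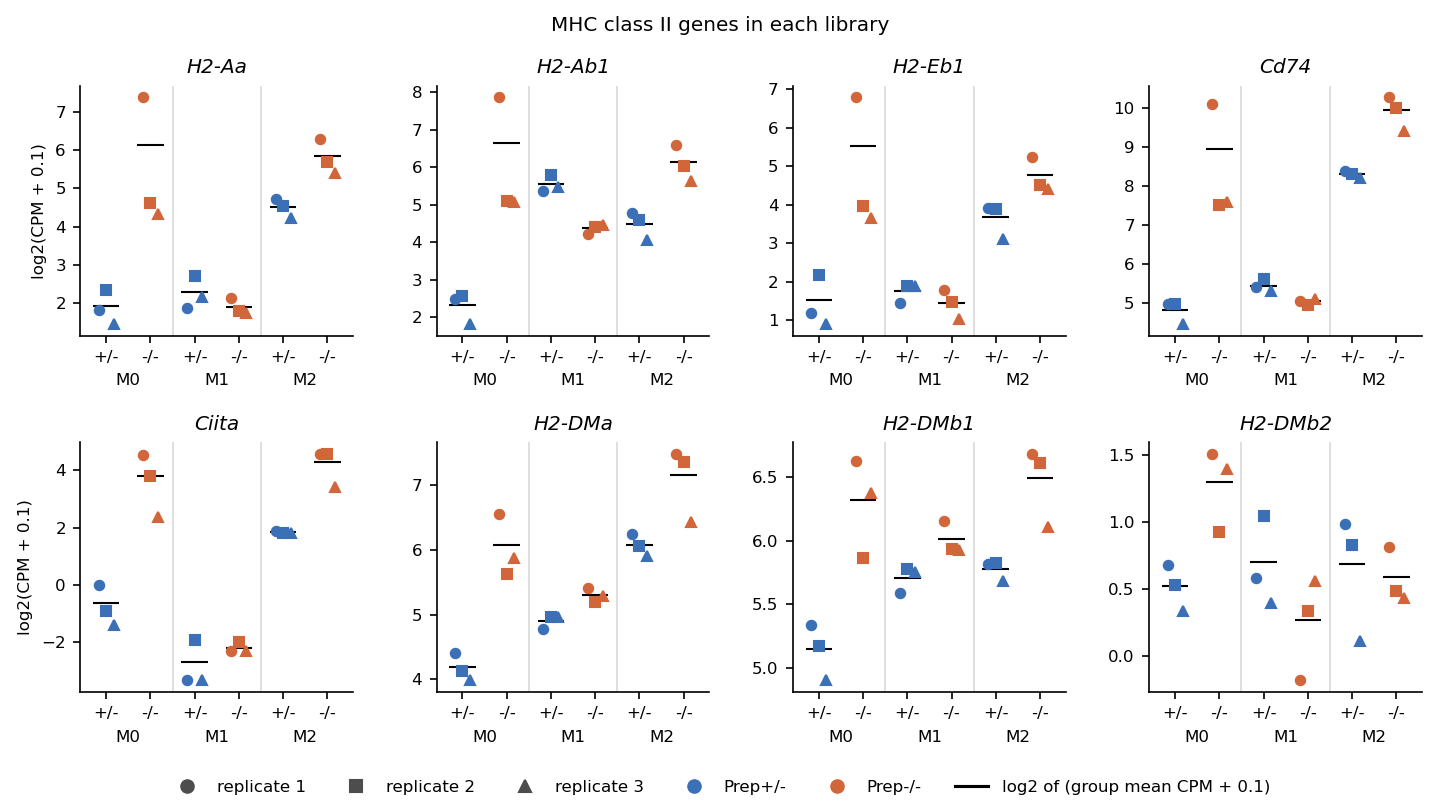
CPM of the 8 class II genes in each of the 18 libraries, on the axis log2(CPM + 0.1), by state and genotype, with the bar at the group mean. In M0 all Prep-/- libraries lay above all Prep+/- libraries, and replicate 1 of Prep-/- M0 reached 166 CPM of H2-Aa and 1107 CPM of Cd74 against 20.2 to 24.5 CPM and 184.7 to 193 CPM in the other two.

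In M2 BMDMs the knockout was again higher for most members, by smaller folds. *H2-Ab1*, *H2-DMa*, *H2-DMb1*, *Cd74* and *Ciita* were called higher, 5 of 8, where 6.37% of all genes were called higher and 9.82% lower. *H2-Aa*, *H2-Eb1* and *H2-DMb2* were not called. The median log2 fold change of the 8 was 1.21, against 0.03 over all genes.

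*Ciita* again had the largest fold, with 3.62, 3.40 and 3.39 CPM in *Prep*+/- M2 and 23.5, 23.8 and 10.6 CPM in *Prep*-/- M2. The controls were close together and the knockouts all above them, by a log2 fold change of 2.47 ± 0.46 (adjusted p = 0.000873). *Cd74* had 336, 321 and 299 CPM in controls and 1247, 1024 and 690 CPM in knockouts, a log2 fold change of 1.63 ± 0.48 (adjusted p = 0.0201). *H2-Ab1* had 27.1, 23.8 and 16.5 CPM in controls and 96.8, 65.8 and 49.8 CPM in knockouts, a log2 fold change of 1.65 ± 0.54 (adjusted p = 0.0352). Within each of these genes the lowest knockout library was replicate 3.

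*H2-Aa* had 26.3, 23.3 and 18.6 CPM in controls against 78.5, 51.5 and 41.9 CPM (1.33 ± 0.56, adjusted p = 0.0923). *H2-Eb1* had 14.9, 14.8 and 8.56 CPM against 37.8, 22.7 and 21.1 CPM (1.09 ± 0.60, adjusted p = 0.199). Neither gene passed the test, and that their libraries did not overlap between the genotypes is a description only. *H2-DMa* had 75.9, 66.7 and 59.7 CPM against 180, 164 and 86.2 CPM (1.09 ± 0.24, adjusted p = 0.0034), and *H2-DMb1* 56.3, 56.7 and 51.1 CPM against 102, 97.4 and 68.8 CPM (0.71 ± 0.17, adjusted p = 0.00681). *H2-DMb2* had 1.88, 1.68 and 0.981 CPM against 1.66, 1.299 and 1.25 CPM, which overlap (-0.11 ± 0.30, adjusted p = 0.824).

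Fitted on the 6 M2 libraries alone, *H2-Aa* (1.33, adjusted p = 0.0113) and *H2-Eb1* (1.09, adjusted p = 0.0390) were called too, which makes 7 of 8. Same-numbered M2 libraries of the 2 genotypes deviated together, and blocking on the number left 5 calls in the fit of 18 libraries and 7 in that of the 6. The 5 calls of the fit on 18 libraries fell to *H2-DMa*, *H2-DMb1* and *Ciita* on leaving out any one *Prep*+/- M2 library or replicate 1 of *Prep*-/- M2, *H2-Ab1* was lost without replicate 2 of *Prep*-/- M2, and all 5 were called without its replicate 3. Macrophage markers summed to 9958 to 12160 CPM in *Prep*+/- M2 and 13817 to 19505 CPM in *Prep*-/- M2. Of the 7, 2 were called higher and 0 lower, against 6.37% and 9.82% of all genes. Dendritic cell markers summed to 108 to 179 CPM against 153 to 588 CPM, nearly all of it *Itgax* (1.15 ± 0.53, adjusted p = 0.130). B cell markers summed to 6.87 to 8.44 CPM against 11.8 to 14.8 CPM, without overlap, and *Cd4* was called higher, with 4, 11 and 10 counts against 49, 31 and 49 (2.54 ± 0.51, adjusted p = 0.0017). The part of these markers in the class II difference was not tested.

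In M1 BMDMs none of the 8 was called, where 12.3% of all genes were called higher and 10.2% lower. *H2-Ab1* came nearest, with 41.2, 55.6 and 44.1 CPM in *Prep*+/- M1 and 18.5, 21.0 and 22.1 CPM in *Prep*-/- M1. Its log2 fold change was -1.19 ± 0.54 (unadjusted p = 0.0428, adjusted p = 0.0959, edgeR). It was the 1 member with an unadjusted p under 0.05, and DESeq2 called 0 as well. Fitted on the 6 M1 libraries alone, *H2-Ab1* was called lower (-1.21, adjusted p = 0.000231). *Cd74* had 42.3, 48.6 and 39.8 CPM against 33.4, 31.0 and 34.1 CPM (-0.41 ± 0.48, adjusted p = 0.527).

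*H2-Aa* had 3.61, 6.46 and 4.36 CPM in *Prep*+/- M1 against 4.31, 3.38 and 3.26 CPM in *Prep*-/- M1 (adjusted p = 0.664), and *H2-Eb1* 2.64, 3.60 and 3.64 CPM against 3.33, 2.67 and 1.93 CPM (adjusted p = 0.76). Both overlapped between the genotypes at levels close to those of *Prep*+/- M0. *H2-DMa* had 27.3, 31.2 and 31.3 CPM against 42.5, 36.5 and 38.97 CPM (0.39 ± 0.24, adjusted p = 0.214), and *H2-DMb1* 48.2, 54.7 and 53.7 CPM against 70.9, 61.2 and 60.9 CPM (0.30 ± 0.17, adjusted p = 0.186). *H2-DMb2* overlapped, at 1.21 to 1.97 CPM against 0.780 to 1.37 CPM. *Ciita* had 0, 3 and 0 counts in *Prep*+/- M1 and 2, 3 and 2 counts in *Prep*-/- M1, at or under the floor of 3 counts per library that a count of 0 allows, and no fold is given. Macrophage markers summed to 44529 to 45873 CPM in *Prep*+/- M1 and 30443 to 36405 CPM in *Prep*-/- M1. Most of this was *Lyz2*, with means of 35216 and 23781 CPM. Of the 7 markers, 1 was called higher in *Prep*-/- M1 and 0 lower. *Cd79b*, *Cd22* and *Cd4* were called higher in *Prep*-/- M1, and the part of these markers was not tested.

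**Figure D2:**
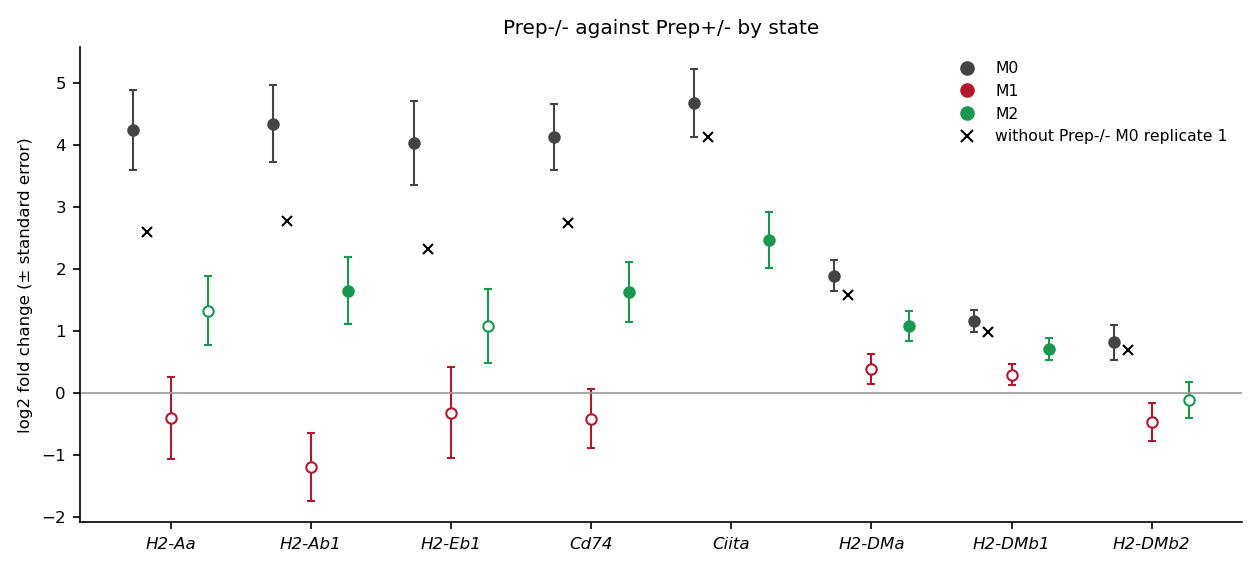
Log2 fold change of Prep-/- against Prep+/- with its standard error (3 replicates a group) for each member in M0, M1 and M2. Filled points were called and open points were not, crosses give the M0 value without Prep-/- M0 replicate 1, and no M1 value is drawn for Ciita. M0 values lay highest for each member, at 4.03 to 4.69 for the chain genes, Cd74 and Ciita, and M1 values of the chain genes and Cd74 lay below 0.

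The dependence of the knockout difference on the state was tested as an interaction. Between M1 and M0 the difference was lower in M1 for 7 of the 8 (9.15% of all genes were called lower and 12.0% higher). The log2 difference was -5.54 ± 0.82 for *H2-Ab1* (adjusted p = 0.000229), -4.64 ± 0.91 for *H2-Aa* (0.00193), -4.54 ± 0.70 for *Cd74* (0.000332), -4.35 ± 0.98 for *H2-Eb1* (0.00491) and -1.50 ± 0.34 for *H2-DMa* (0.00548). *H2-DMb1* and *H2-DMb2* followed with -0.87 ± 0.25 and -1.28 ± 0.42. *Ciita*, nearly without counts in M1, was not called. Without *Prep*-/- M0 replicate 1 the values of the chain genes and *Cd74* were -2.64 to -3.98, and *H2-DMb2* lost its call (-1.16, adjusted p = 0.0793). Its call ended on leaving out 7 of the 12 libraries in turn, and that of *H2-DMb1* without replicate 3 of *Prep*+/- M0.

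Between M2 and M0 the knockout difference was lower in M2 for *H2-Aa* (-2.91 ± 0.82, adjusted p = 0.0357), *H2-Ab1* (-2.70 ± 0.79, 0.0406), *H2-Eb1* (-2.94 ± 0.88, 0.0444) and *Cd74* (-2.50 ± 0.67, 0.0288), against 4.13% of all genes lower and 4.53% higher. Leaving out *Prep*-/- M0 replicate 1 left *Cd74* as the 1 call (-1.11, adjusted p = 0.0215) and brought the chain genes to between -1.13 and -1.26. Only *Cd74* and *Ciita* were called on leaving out replicate 1 of *Prep*+/- M0 or replicate 2 of *Prep*-/- M2, and no member on leaving out replicate 2 or 3 of *Prep*+/- M0, replicate 1 or 2 of *Prep*+/- M2 or replicate 3 of *Prep*-/- M2. Between M2 and M1 the difference was higher in M2 for *H2-Ab1* (2.85 ± 0.77, adjusted p = 0.0221), against 4.58% of all genes higher and 7.35% lower, and the call ended on leaving out replicate 3 of *Prep*+/- M2, replicate 1 of *Prep*-/- M1 or replicate 1 of *Prep*-/- M2. *Cd74* came next (2.04 ± 0.68, adjusted p = 0.0541).

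In *Prep*+/- BMDMs, LPS raised one chain gene and not its partners. *H2-Ab1* went from 3.41 to 5.84 CPM in M0 to 41.2 to 55.6 CPM in M1, a 9.58-fold rise (3.26 ± 0.60, adjusted p = 0.000233). *H2-Aa*, whose product pairs with that of *H2-Ab1*, stayed within overlapping ranges (0.38 ± 0.65, adjusted p = 0.651), as did *H2-Eb1* (0.22 ± 0.71, adjusted p = 0.812). *H2-DMa* rose 1.66-fold (adjusted p = 0.0206), and *H2-DMb1* by 1.48-fold, under the fold criterion (adjusted p = 0.0131).

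*Ciita* fell from 38 counts over the 3 *Prep*+/- M0 libraries to 3 over the 3 M1 libraries. The ratio of M0 to M1, scaled for library size, was 9.27 with an exact 95% interval of 2.94 to 46.9 that covers counting error only, and the edgeR test called it lower (adjusted p = 0.0297). *H2-Ab1* was thus at its *Prep*+/- maximum in the libraries where *Ciita* was at or near 0 counts. *Cd74* had 39.8 to 48.6 CPM in M1, all above its M0 values, without passing the test (0.63 ± 0.48, adjusted p = 0.289). In the fit of only these 6 libraries it was called higher (0.64, adjusted p = 0.00388), and likewise with a replicate block (0.65, adjusted p = 0.00366). In all, 2 members were called higher and 1 lower, where 16.7% of all genes were called higher and 20.9% lower. Of the 7 macrophage markers, 4 were called higher and 0 lower, and their part was not tested. *H2-Ab1* was called on leaving out any library. The call of *Ciita* ended without replicate 1 of *Prep*+/- M0 or replicate 1 or 3 of *Prep*+/- M1, and that of *H2-DMa* without replicate 2 or 3 of either group.

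In *Prep*-/- BMDMs, LPS was followed by lower levels of 7 of the 8, where 21.0% of all genes were called lower and 20.9% higher. *H2-Aa* went from 20.2 to 166 CPM in M0 to 3.26 to 4.31 CPM in M1 (-4.27 ± 0.65, adjusted p = 3.63e-05). *H2-Eb1* (-4.13 ± 0.69, adjusted p = 9.09e-05) and *Cd74* (-3.92 ± 0.53, adjusted p = 1.00e-05) fell as far. *H2-Ab1* fell less (-2.28 ± 0.56, adjusted p = 0.00218), and to -0.71 without *Prep*-/- M0 replicate 1. *H2-DMa* (-0.77 ± 0.24) and *H2-DMb2* (-1.09 ± 0.30) fell as well, while *H2-DMb1* overlapped between the states (-0.31 ± 0.17, adjusted p = 0.138).

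*Ciita* fell from 917 counts over the 3 *Prep*-/- M0 libraries to 7 over the 3 *Prep*-/- M1 libraries, an M0 to M1 ratio of 115 (exact 95% interval 55.8 to 288, counting error only, edgeR adjusted p = 5.67e-07). Leaving out *Prep*-/- M0 replicate 1 brought the log2 fold changes of *H2-Aa*, *H2-Eb1* and *Cd74* to -2.61, -2.41 and -2.53 and ended the call of *H2-DMa* (-0.45, adjusted p = 0.102). *Itgax* (-2.04 ± 0.68) and *Cd4* (-2.65 ± 0.40) were called lower as well. Of the 7 macrophage markers, 3 were called higher and 1 lower, and the part of these markers was not tested. The numbers paired these libraries too, and a replicate block left the same 7 called.

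IL-4 and IL-13 raised 7 of the 8 in *Prep*+/- BMDMs, where 6.09% of all genes were called higher and 6.77% lower. *Cd74* rose most, from 21.8 to 31.5 CPM in M0 to 299 to 336 CPM in M2, or 11.3-fold (adjusted p = 0.000127). *Ciita* rose 6.47-fold, from 0.281 to 0.912 CPM to 3.39 to 3.62 CPM (adjusted p = 0.00262), and *H2-Aa* 6.14-fold, from 2.65 to 5.01 CPM to 18.6 to 26.3 CPM (adjusted p = 0.00656). *H2-Ab1* and *H2-Eb1* rose 4.59-fold and 4.53-fold, *H2-DMa* 3.73-fold and *H2-DMb1* 1.55-fold, and the M2 libraries of each of these genes lay above all M0 libraries. *H2-DMb2* overlapped (0.18 ± 0.29, adjusted p = 0.72). Both dendritic cell markers tested were called higher with these genes, *Itgax* from 3.92 to 11.2 CPM in M0 to 107 to 176 CPM in M2 (4.45 ± 0.63) and *Zbtb46* from 2 to 8 counts to 14 to 43 counts (2.38 ± 0.64). Macrophage markers summed to 18733 to 22167 CPM in M0 and 9958 to 12160 CPM in M2, with 2 of the 7 called lower and 0 higher. The B cell marker *Cd22* was called higher, and the part of these markers was not tested. *H2-Aa*, *H2-DMa*, *Cd74* and *Ciita* were called on leaving out any library. *H2-Ab1* lost its call without replicate 3 of *Prep*+/- M0, *H2-Eb1* without replicate 1 or 3 of *Prep*+/- M0 or replicate 1 or 2 of *Prep*+/- M2, and *H2-DMb1* without replicate 2 or 3 of *Prep*+/- M0 or replicate 1 or 2 of *Prep*+/- M2.

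In *Prep*-/- BMDMs the same cytokines gave 1 member higher and 1 lower, where 14.7% of all genes were called higher and 15.5% lower. *H2-DMa* went from 49.3 to 93.9 CPM to 86.2 to 180 CPM (1.09 ± 0.24, adjusted p = 0.00151), and *H2-DMb2* from 1.80 to 2.75 CPM to 1.25 to 1.66 CPM (-0.75 ± 0.29, adjusted p = 0.0467). The call of *H2-DMb2* ended without replicate 1 or 3 of *Prep*-/- M0 or replicate 2 or 3 of *Prep*-/- M2, and the count of calls turned on *Prep*-/- M0 replicate 1. Without it, *H2-Aa* (1.36, adjusted p = 0.00154), *H2-Ab1* (1.07, adjusted p = 0.00473), *H2-Eb1* (0.95, adjusted p = 0.04), *H2-DMa* (1.41) and *Cd74* (2.39, adjusted p = 5.98e-07) were called higher in M2, and with it the chain genes had log2 fold changes of -0.29 to -0.76. The mean of *Cd74* in *Prep*-/- M2 was 5.23 times its mean in *Prep*-/- M0 replicates 2 and 3, and that of *H2-Aa* was 2.57 times. *Itgax* (5.20 ± 0.64) and *Zbtb46* (2.17 ± 0.61) were called higher here too and *Cd4* lower (-2.99 ± 0.40). Of the 7 macrophage markers, 6 were called lower and 1 higher (median log2 fold change -0.91), and the part of these markers was not tested.

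**Figure D3:**
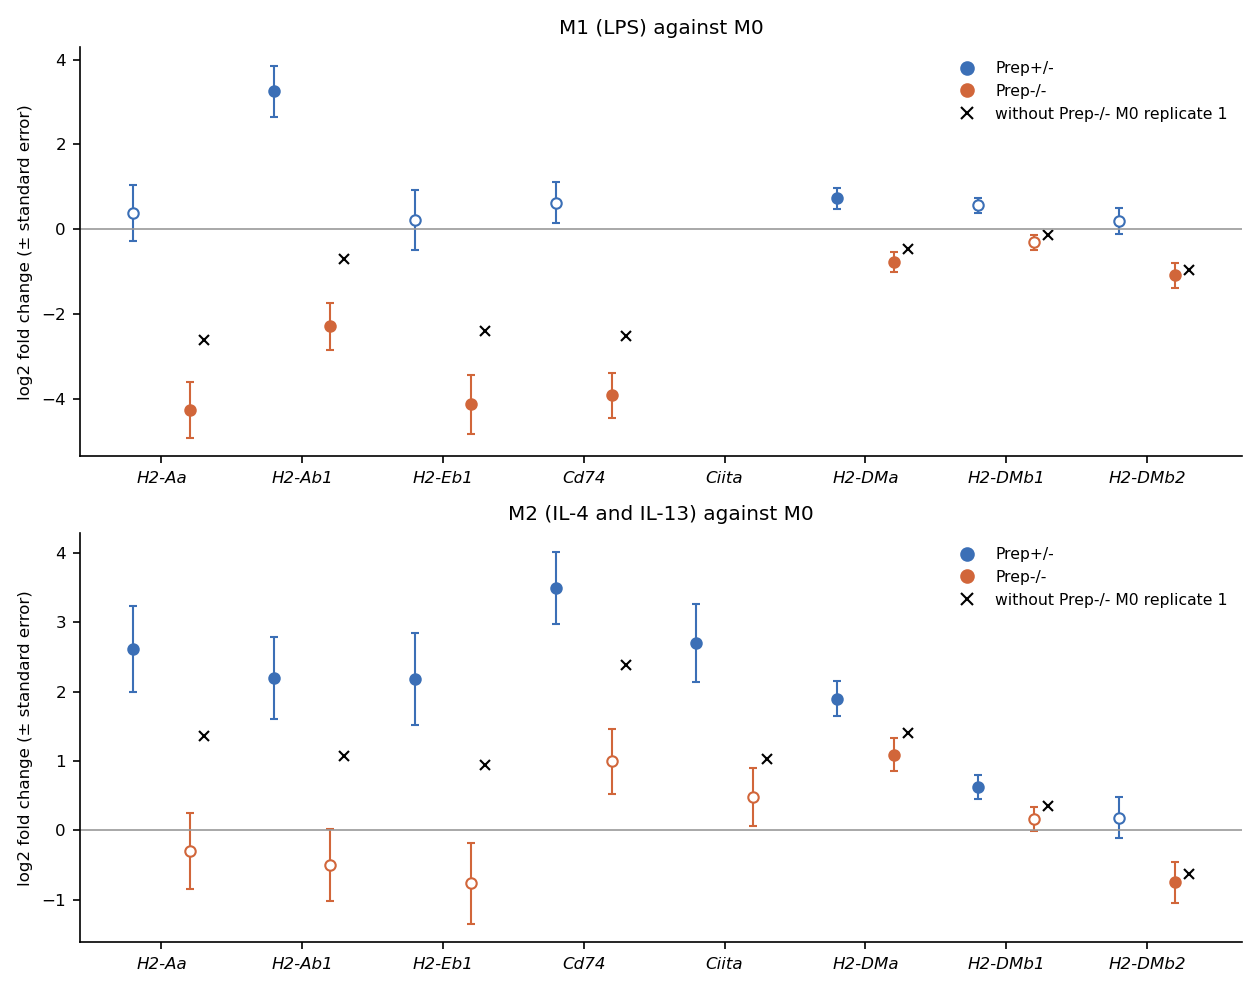
Log2 fold change with its standard error (3 replicates a group) of M1 and of M2 against M0 in each genotype. Filled points were called, open points were not, crosses leave out Prep-/- M0 replicate 1, and no M1 value is drawn for Ciita. In M1, H2-Ab1 stood at 3.26 in Prep+/- and -2.28 in Prep-/- BMDMs, and in M2 the Prep-/- values of the chain genes moved from below 0 to between 0.95 and 1.36 without that library.

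Ratios of counts within a library do not depend on library scaling, and they were noticed in these data and are given without a test. *H2-Ab1* to *H2-Aa* was 1.17 to 1.65 in the 6 M0 libraries and 0.890 to 1.28 in the 6 M2 libraries, but 8.61 to 11.4 in *Prep*+/- M1 and 4.29 to 6.78 in *Prep*-/- M1. *H2-Eb1* to *H2-Aa* ran from 0.440 to 0.890 over all 18 libraries. The 2 β chain genes thus parted in M1, while *H2-Aa* and *H2-Eb1* moved together, with a Pearson r of 0.99 over the 18 libraries on log2 CPM against 0.71 for *H2-Aa* and *H2-Ab1*, values that carry the group differences and are given as a description.

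*Cd74* to *H2-Aa* was 6.28 to 11.7 in M0 and M1 libraries and 12.8 to 19.9 in the M2 libraries. *H2-DMa* to *H2-DMb1* was 0.486 to 0.526 in *Prep*+/- M0, 0.707 to 0.956 in *Prep*-/- M0, 0.568 to 0.640 in M1 and 1.17 to 1.76 in M2. Of all *H2-DMb* counts, *H2-DMb2* had 1.09% (exact 95% interval 0.610% to 1.79%, counting error only) to 3.75% (2.52% to 5.34%) per library. In *Prep*-/- M0 replicate 1, where the levels stood apart, the ratios among *H2-Aa*, *H2-Ab1*, *H2-Eb1* and *Cd74* lay within or next to those of its partners (*H2-Ab1* to *H2-Aa* 1.40 against 1.39 and 1.65, *Cd74* to *H2-Aa* 6.66 against 7.54 and 9.58).

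**Figure D4:**
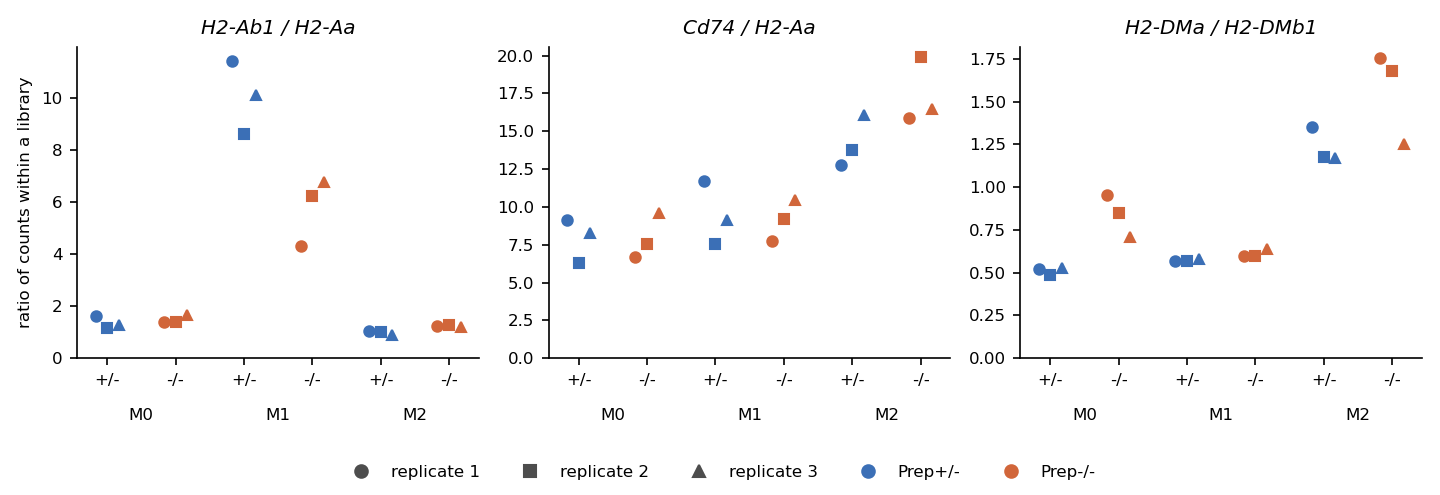
Ratio of counts within each library for 3 gene pairs, on linear axes from 0, by state and genotype. H2-Ab1 to H2-Aa was 4.29 or more in all 6 M1 libraries and 1.65 or less elsewhere, and Cd74 to H2-Aa was highest in M2.

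The members differed in the order of the groups. *H2-Aa* and *H2-Eb1* had *Prep*-/- M1, *Prep*+/- M0 and *Prep*+/- M1 at the bottom with overlapping libraries, then *Prep*+/- M2, then *Prep*-/- M2, with *Prep*-/- M0 highest by mean but spread across *Prep*-/- M2 and down to *Prep*+/- M2. *H2-Ab1* was lowest in *Prep*+/- M0, its *Prep*-/- M1 and *Prep*+/- M2 libraries overlapped, and *Prep*+/- M1 lay above both. For *Ciita* the order was M1 of both genotypes, *Prep*+/- M0, *Prep*+/- M2 and then *Prep*-/- M0 and M2, which overlapped. *Cd74*, *H2-DMa* and *H2-DMb1* were lowest in *Prep*+/- M0 and highest in *Prep*-/- M2. *H2-DMb2* overlapped between each group and the next in its order, with *Prep*-/- M0 highest by mean.

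Per kilobase of canonical transcript, *Cd74* led in *Prep*-/- M2 with 690 ± 196 CPM per kb (SD, n = 3), and *H2-DMa* followed with 124 ± 43.5. *H2-DMb1* (63.8 ± 12.9), *H2-Ab1* (58.4 ± 19.8) and *H2-Aa* (50.8 ± 16.8) came next and overlapped, and *H2-Eb1* had 16.03 ± 5.42. *Ciita* had 2.58 ± 1.01 and *H2-DMb2* 0.959 ± 0.154. In *Prep*+/- M0 the editor genes *H2-DMb1* (25.2 ± 3.76) and *H2-DMa* (15.7 ± 2.37) lay at or near the level of *Cd74* (19.7 ± 3.86) and above *H2-Ab1* (4.05 ± 1.08), *H2-Aa* (3.27 ± 1.07) and *H2-Eb1* (1.65 ± 0.854).

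Genes around the members were counted by list. The remaining class II genes were scarce: *H2-Oa* and *H2-Ob*, the chain genes of H2-DO, an inhibitor of H2-DM, had at most 23 and 32 counts in any library, and *H2-Eb2* at most 2. *H2-Oa* had 10, 6 and 7 counts in *Prep*+/- M0 against 23, 14 and 15 in *Prep*-/- M0 and was called higher (adjusted p = 0.0433), and *H2-Ob* had 2, 6 and 12 counts in *Prep*+/- M2 against 1, 0 and 0 in *Prep*-/- M2 and was called lower (adjusted p = 0.00835). *H2-Ob* was also lower in M2 than in M0 in *Prep*+/- (24, 24 and 21 counts in M0, adjusted p = 0.0185). In *Prep*-/-, both genes were called lower in M2 than in M0. *H2-Ob* had 14, 28 and 30 counts in *Prep*-/- M0 against 1, 0 and 0 in M2, and *H2-Oa* 23, 14 and 15 against 4, 0 and 2. Between genotypes, 15.4% of all genes were called higher in *Prep*-/- M0 and 9.82% lower in *Prep*-/- M2. For M2 against M0, 6.77% of all genes were called lower in *Prep*+/- and 15.5% in *Prep*-/-. *H2-Ea* was not analysed here.

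Factors that seat CIITA on the promoter had smaller log2 fold changes than *Ciita*. Of 7 measured, *Rfxank* was higher in *Prep*-/- M0 (0.60 ± 0.14, adjusted p = 0.00278) and *Nfyb* lower (-0.63 ± 0.15, adjusted p = 0.00223). Over all genes, 15.4%, 12.3% and 6.37% were called higher in M0, M1 and M2, and 17.2%, 10.2% and 9.82% lower. In M0, 1 of 7 each way was near those shares. In M1, *Rfx5*, which binds the X box, was higher (0.95 ± 0.16, adjusted p = 0.000457), with 7.48, 8.43 and 6.67 CPM in *Prep*+/- and 15.3, 15.8 and 12.6 CPM in *Prep*-/- libraries, and so was *Rfxank* (0.59 ± 0.15, adjusted p = 0.00574). In M2 *Rfx5* stood at -0.03 ± 0.16, and *Nfyb* at -0.46 ± 0.15 was under the fold criterion. *Rfxap* had 0.33, 0.15 and -0.06 in M0, M1 and M2, under that criterion too. With LPS, 2 of the 7 were called lower in *Prep*+/- BMDMs and 0 higher, where 20.9% of all genes were called lower and 16.7% higher. *Rfx5* was 1 of the 2 (-0.64 ± 0.16, adjusted p = 0.0027). The mean of *Nfyb* went from 18.6 CPM in *Prep*+/- M0 to 11.1 CPM in *Prep*+/- M1.

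The interferon-γ axis drives *Ciita* transcription, and its list here also held *Spi1*, the gene of the macrophage lineage factor PU.1. Of the 7 genes counted, 5 were higher in *Prep*-/- M0, 3 in M1 and 2 in M2, against 15.4%, 12.3% and 6.37% of all genes. *Irf1* was higher in each state, by 1.48 ± 0.27 in M0, 1.44 ± 0.27 in M1 and 1.16 ± 0.27 in M2 (adjusted p = 0.000358, 0.00102 and 0.00482). *Ifngr1*, a receptor chain, was higher in M0 (1.20 ± 0.12) and M1 (1.08 ± 0.12), and *Irf8* in M0 (1.26 ± 0.15) and M2 (0.84 ± 0.15). *Ifng* was not analysed here. In M1, where *Irf1* was higher in *Prep*-/-, *Ciita* had 7 counts over the 3 *Prep*-/- libraries. The part of these genes in the *Ciita* levels was not tested.

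Endosomal proteases and the thiol reductase that prepare antigens were higher in *Prep*-/- for 3 of 7 genes in M0, 1 in M1 and 6 in M2. Over all genes, 15.4%, 12.3% and 6.37% were called higher, so 1 of 7 in M1 was near that share. *Ctss*, the cathepsin that trims the invariant chain, was higher in M0 (0.94 ± 0.16, adjusted p = 0.000215) and M2 (0.94 ± 0.16, adjusted p = 0.000555). *Ctsh* was higher by 1.34 ± 0.20 and 1.46 ± 0.20 in the same states. *Lgmn*, an asparaginyl endopeptidase, was higher in all 3 states (1.16 ± 0.18, 0.71 ± 0.18 and 0.68 ± 0.18), and the reductase gene *Ifi30* in M2 (0.84 ± 0.11, adjusted p = 6.66e-05). *Ctsl* had -0.43 ± 0.17 in M0 and -0.49 ± 0.17 in M1, under the fold criterion.

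Of 3 genes of surface turnover, 2 were called higher in *Prep*-/- M0, 1 in M1 and 2 in M2, against 15.4%, 12.3% and 6.37% of all genes. *Marchf1*, an E3 ligase that removes class II from the surface, was higher in *Prep*-/- in M0 (1.34 ± 0.14), M1 (0.85 ± 0.14) and M2 (0.80 ± 0.14). *Cd83*, which opposes that ligase, was higher in M0 (1.39 ± 0.24) and M2 (1.32 ± 0.23) and fell with LPS in both genotypes (-4.56 ± 0.34 in *Prep*+/- and -5.53 ± 0.32 in *Prep*-/-). Of 6 neighbours in the class II region, *Psmb9* (0.83 ± 0.22), *Tap1* (0.82 ± 0.15) and *Tap2* (0.67 ± 0.14), which serve class I presentation, were higher in *Prep*-/- M0. *Tap1* was higher in M1 (0.66 ± 0.15) and had 0.02 ± 0.15 in M2. By count, 3 of the 6 were called higher in M0, 1 in M1 and 0 in M2, beside the same shares of all genes. LPS raised *Tap1*, *Tap2*, *Psmb8* and *Psmb9* in both genotypes, where 16.7% of all genes were called higher in *Prep*+/- and 20.9% in *Prep*-/-.

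**Figure D5:**
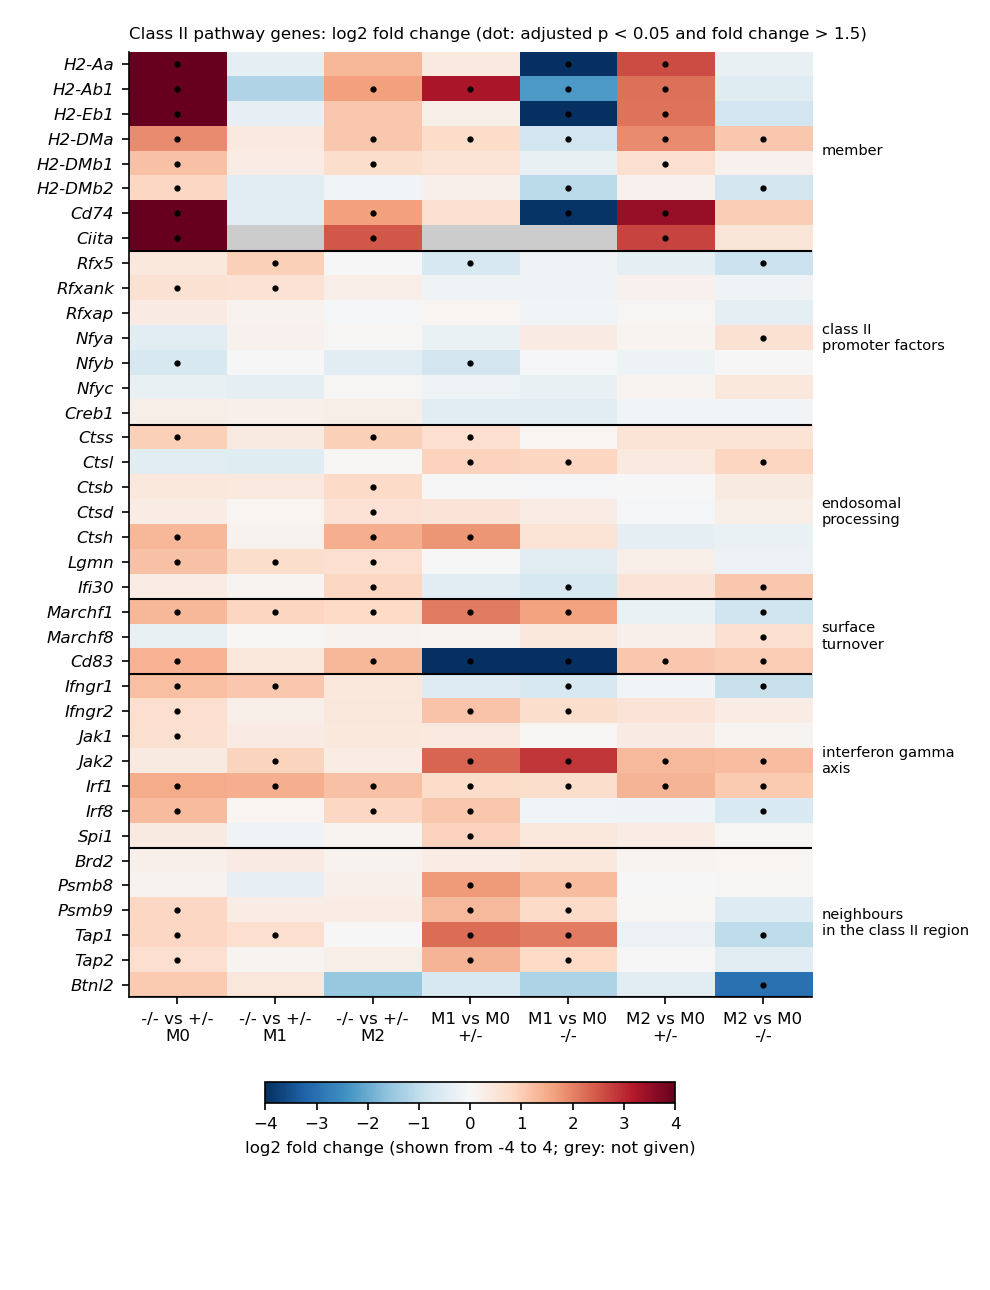
Log2 fold changes of the members and of 5 lists of related genes in 7 comparisons, with a dot where adjusted p was under 0.05 and the fold change over 1.5. Colours stop at -4 and 4, and grey cells of Ciita are not given because a group was at or near 0 counts. Irf1 and Marchf1 were higher in all 3 knockout comparisons, and the chain genes and Cd74 lay above 0 in M0 and M2 and below 0 in M1.

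The genes most alike in pattern were sought among 9594 genes of at least 5 CPM that are no member, by Pearson r of log2 CPM over the 18 libraries with the mean z-score of *H2-Aa*, *H2-Ab1*, *H2-Eb1* and *Cd74*. The 10 highest were *Akt1s1* (0.917), *Tbxas1* (0.911), *Tmbim1* (0.897), *Dse* (0.894), *Znrf2* (0.892), *Ahr* (0.884), *Anks3* (0.882), *Kctd11* (0.876), *Mob3c* (0.874) and *Gpr65* (0.873). *Tbxas1*, for example, had group means of 55.6 ± 1.20, 70.2 ± 1.94 and 109.5 ± 6.89 CPM (SD, n = 3) in *Prep*+/- M0, M1 and M2 and 115 ± 23.1, 56.7 ± 1.73 and 142.5 ± 40.6 CPM in *Prep*-/-. The libraries share their groups, so the r values follow group differences. Of the 10, 5 stayed among the 10 highest by Spearman's rho, 4 on the 6 group means, and 5 without *Prep*-/- M0 replicate 1.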

How the data were processed

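Bulk RNA-seq libraries of *Prep*+/- and *Prep*-/- BMDMs in 3 states, 18 in all with 3 biological replicates in each of 6 groups, were grouped by their labels. The authors trimmed reads (Trimmomatic 0.36), aligned them to GRCm39 (HISAT2 2.2.1.0, per the submitters' processing notes) and deposited whole-number counts per gene without normalization. Reads that map equally to near-identical genes, such as *H2-DMb1* and *H2-DMb2*, depend on that step. The strand setting of the counting was not given in the sources used here.

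Counts were filtered with filterByExpr (minimum count 10), scaled by TMM (factors 0.818 to 1.20) and tested with edgeR 4.0.16 (quasi-likelihood, R 4.3.3, limma 3.58.1) in 1 fit of 18 libraries with 1 coefficient per group and Benjamini-Hochberg adjustment over 12021 genes. The common biological coefficient of variation was 0.167 with 4.47 prior degrees of freedom. The pipeline was tested on simulated counts. DESeq2, the study's tool, was run here in version 1.42.0 as an alternative, beside other scaling, filters, libraries, fold criteria, a replicate block, summed *H2-DMb* genes and leaving out each library. Intervals of counts are exact at 95%.

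Members and lists were chosen with earlier results of these data known. All 8 members were named. From the other lists, fixed genes and up to 3 called genes of largest change and at least 5 CPM were named, and genes outside this rule were named after their values were seen. One gene of the interferon-γ list is not reported here and was left out of its counts. The marker lists covered macrophage, dendritic, B, T and NK cells. Replicate numbers paired libraries of the 2 genotypes in M2 (lowest correlation of deviations 0.249) and M1 and M0 libraries of *Prep*-/- (0.169), as every pair exceeded 0.1. The other 5 comparisons did not pair. Transcripts were compared with blastn 2.17.0, and promoter sequences are RefSeq's on GRCm38.p6, a build other than that of the gene positions.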

Additional observations from a re-analysis of the deposited data

Results flagged for a closer look

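The knockout difference itself differed between states for several members, by the interaction test of edgeR with Benjamini-Hochberg adjustment. It was lower in M1 than in M0 for *H2-Aa* (log2 difference -4.64), *H2-Ab1* (-5.54), *H2-Eb1* (-4.35), *H2-DMa* (-1.50), *H2-DMb1* (-0.87), *H2-DMb2* (-1.28) and *Cd74* (-4.54). It was lower in M2 than in M0 for *H2-Aa* (-2.91), *H2-Ab1* (-2.70), *H2-Eb1* (-2.94) and *Cd74* (-2.50), of which *Cd74* alone was called without *Prep*-/- M0 replicate 1. It was higher in M2 than in M1 for *H2-Ab1* (2.85).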

How the results depend on the processing

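Of the values of single members under all alternatives, 110 lost a call, 33 gained one and 5 called values turned direction. The remaining values, counted as 1278, stayed on their side of the threshold without a called value turning. That count also holds the values by Spearman's rho and by group means of the 10 genes most alike in pattern. Those are no members and have no threshold. Among the 1278, 9 had the other sign, at values called in neither fit. With *H2-DMb1* and *H2-DMb2* summed, the value standing for *H2-DMb2* became 0.69 (adjusted p = 0.00775) for the genotypes in M2 and 0.15 for M2 against M0 in *Prep*-/-, as the sum follows the abundant *H2-DMb1*. For M2 against M0 in *Prep*-/-, leaving out single libraries gave -0.73 to 1.36 for *H2-Aa*, -0.91 to 1.07 for *H2-Ab1* and -1.21 to 0.95 for *H2-Eb1*, each highest without replicate 1 of *Prep*-/- M0.

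Calls among the 8 moved by over 1.5 times as follows, and the cause was not tested. Between genotypes in M1, the fit of only the libraries compared called 1 member against 0, with or without the replicate block. With glmTreat against a fold change of 1.5, the calls were 1 against 5 between genotypes in M2, 1 against 3 for M1 against M0 and 4 against 7 for M2 against M0 in *Prep*+/-, 1 against 2 for M2 against M0 in *Prep*-/-, and 0 for the M2 to M0 and M2 to M1 differences of the knockout effect. For M2 against M0 in *Prep*-/-, 1 member was called without a filter, in the fit of only the libraries compared, in that fit with the replicate block and with the summed genes. For the M2 to M0 difference, the fit of only the libraries compared called 0, and 1 with the replicate block, against 4. For the M2 to M1 difference, DESeq2, DESeq2-type size factors, no filter and the replicate block each called 2, and only the libraries compared called 4, with or without the block, against 1.

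Leaving out single libraries gave 3 to 5 calls between genotypes in M2, 1 to 3 for M1 against M0 and 4 to 7 for M2 against M0 in *Prep*+/-, 1 to 5 for M2 against M0 in *Prep*-/-, 0 to 5 for the M2 to M0 difference and 0 to 3 for the M2 to M1 difference. Over all alternatives, counts for the genotypes in M0 (7 to 8), M1 against M0 in *Prep*-/- (5 to 7) and the M1 to M0 difference (5 to 8) stayed within 1.5 times. In the 2 comparisons whose numbers pair, adding the replicate block changed no call. For M1 against M0 in *Prep*+/-, the fit of only the libraries compared did not test *Ciita* and called *Cd74* (0.64), so its count of 3 holds another gene. With 3 replicates a group, depth limits *Ciita* in M1 and *H2-DMb2*, which had 15 to 58 counts a library.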
